A study of Mus musculus with 8 samples.

Results

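Genes of the glutathione, peroxiredoxin, thioredoxin and superoxide dismutase systems were examined in the brown fat of male C57BL/6 mice, a tissue that burns fuel to make heat. The genes were chosen by symbol in the deposited table of normalized log2 intensities: the glutathione S-transferases of the alpha, mu, omega, pi, theta, kappa and zeta classes, the glutathione peroxidases, the peroxiredoxins, the superoxide dismutases, and 12 genes of glutathione synthesis and recycling, thioredoxin and the NFE2L2 pathway. This gave 50 genes of the 21759 in the table. They were covered by 57 transcript clusters, the groups of probes that an Affymetrix Mouse Gene 1.0 ST array places along a gene, and where a gene had several, the one with the highest mean of 8 arrays was used. RNA from 4 samples labelled NCD was compared with RNA from 4 samples labelled HFD, for high-fat diet. What NCD stands for, the age of the mice and the time on diet are not stated in the labels. Whether each sample was a separate animal is not stated either, and the p-values then cover the spread among samples, which may be technical.

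Glutathione is a tripeptide that carries a reactive thiol and is kept reduced with electrons from NADPH. Glutathione peroxidases and peroxiredoxins use thiols or selenols to reduce hydrogen peroxide and lipid peroxides, thioredoxins regenerate the peroxiredoxins, and superoxide dismutases convert superoxide to hydrogen peroxide. The transferases join glutathione to lipid aldehydes and foreign compounds. Many of these genes are transcribed under NFE2L2, a factor that KEAP1 holds for degradation until its thiols are oxidised. Brown adipocytes are rich in mitochondria, where much of the tissue's superoxide arises.

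NFE2L2 acts through the antioxidant response element, and its core was looked for in the promoters. The letters TGACNNNGC, a pattern of 9 bases, were searched on both strands of the 250 bases before each start in the RefSeq promoters of GRCm38.p6, in which 43 of the 50 genes had an entry. At least 1 match was found in 8 of those 43 genes (18.6%), against 11.5% of the 27025 genes with an entry. Only the start of Prdx1 had the form TGACTCAGC among the 8. The matches of Prdx1, Gclm and Txnrd1, well-known NFE2L2 targets, and those of Gstm5 and Sod1, described below with their values on every array, are shown on the gene's own strand with the matched bases in capitals. A match on the opposite strand reads as the reverse complement of the pattern.
Prdx1, chr4:116685450-116685490, plus strand: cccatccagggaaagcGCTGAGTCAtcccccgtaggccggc
Gclm, chr3:122245407-122245447, plus strand: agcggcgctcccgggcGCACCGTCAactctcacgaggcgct
Txnrd1, chr10:82859098-82859138, plus strand: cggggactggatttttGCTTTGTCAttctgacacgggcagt
Gstm5, chr3:107895796-107895836, plus strand: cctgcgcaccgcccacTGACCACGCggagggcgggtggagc
Sod1, chr16:90220690-90220730, plus strand: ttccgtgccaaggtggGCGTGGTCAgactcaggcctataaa
The matched bases of Gstm5 and Sod1 are reverse complements of each other. Nothing about binding follows from a match.

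The arrays differed in spread. The standard deviation over the 25254 clusters was 1.82 on NCD 3, 1.79 on NCD 2 and 1.78 on HFD 4, and between 1.69 and 1.75 on the other arrays. The mean over the 7629 genes above a background mark was 8.0 on NCD 3, 7.92 on NCD 2 and 7.89 on HFD 4, against 7.78 to 7.84 on the others. The mark, a log2 level of 6.46, is the 95th percentile of 1119 olfactory receptor genes, and 34 of the 50 antioxidant genes lay above it. By their mean over 8 arrays, the brown adipocyte markers Ucp1, Cidea, Dio2, Ppargc1a, Cox7a1, Cox8b, Elovl3, Prdm16 and Cpt1b lay above it and Zic1 did not. Elovl3 averaged 7.20 in NCD and 5.82 in HFD, where all its values lay under the mark (5.33, 5.97, 5.75 and 6.22). Its log2 difference, HFD minus NCD, was -1.385 (limma adjusted p = 0.00673). Muscle markers stood apart on NCD 1 and HFD 3, with a mean over 10 genes of 9.08 and 9.715, against 5.23 to 5.77 on the other arrays. Means were lower in HFD for 8 of 10 brown adipocyte and 5 of 8 general adipocyte markers, and higher for 2 and 3. They were higher for 8 of 8 progenitor and fibroblast, 7 of 8 endothelial and 7 of 11 macrophage and monocyte markers, and lower for 0, 1 and 4. Higher means were also found for 9 of 9 neutrophil and mast cell, 9 of 10 skeletal muscle, 5 of 9 lymphocyte, 5 of 8 neural and 5 of 7 hepatocyte markers. Erythroid markers had lower means for 6 of 8. Lower means made up 52.5% of all genes and 63.7% of the genes above the mark. The part of cell types in the antioxidant differences was not tested. In whole tissue, fewer cells of a type and less RNA per cell cannot be told apart.

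**Figure D1:**
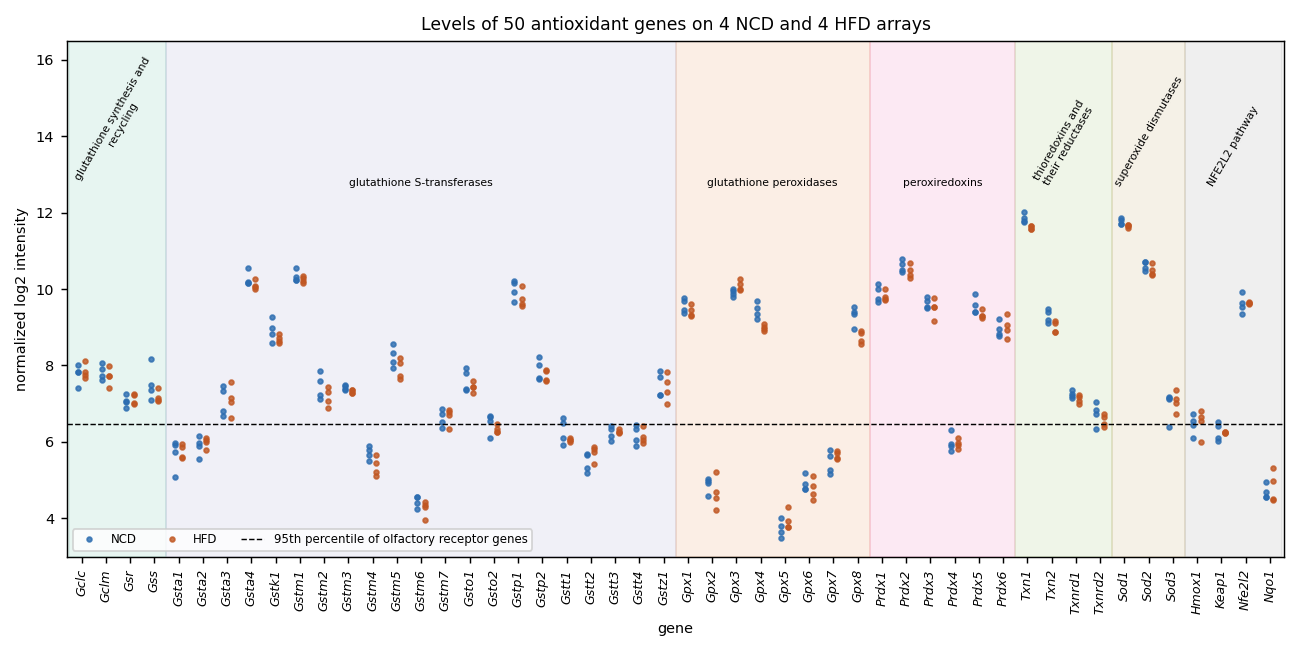
Normalized log2 intensity (vertical axis) of each of the 50 genes (horizontal axis, by role) on 4 NCD arrays (blue) and 4 HFD arrays (orange), 1 point per array. The dashed line is the background mark of 6.46, which 34 genes exceed in their mean. Heights of different genes depend on their probes and do not rank their abundance.

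None of the 50 genes passed an adjusted p of 0.05 for HFD against NCD in limma, with adjustment over all 21759 genes, where 0.133% of genes passed as lower and 0.00919% as higher. The smallest adjusted p was that of Gpx8 (0.178). At an unadjusted p under 0.05, 5 genes were lower in HFD (Gpx8, Gpx4, Gstm4, Txn2 and Txn1) and 0 were higher, against 4.52% of all genes lower and 2.73% higher. The HFD arrays lay wholly under the NCD arrays for 4 genes (Gpx8, Gpx4, Txn1 and Sod1) and wholly above them for 0, against 2.5% and 1.33% of all genes. Means were lower in HFD for 34 of the 50 genes, against 52.5% of all genes. Among the 34 genes above the background mark, 25 had lower means, against 63.7% of all genes above it. At an unadjusted p under 0.05, 4 of these 34 were lower and 0 higher, against 626 and 196 of the 7629 genes above the mark. The HFD arrays lay wholly under the NCD arrays for 4 of the 34 and wholly above for 0, against 353 and 91 of the 7629. The median log2 difference, HFD minus NCD, was -0.12 over the 50 genes and -0.01 over all genes. Above the mark it was -0.1275 for the antioxidant genes and -0.055 for all genes.

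**Figure D2:**
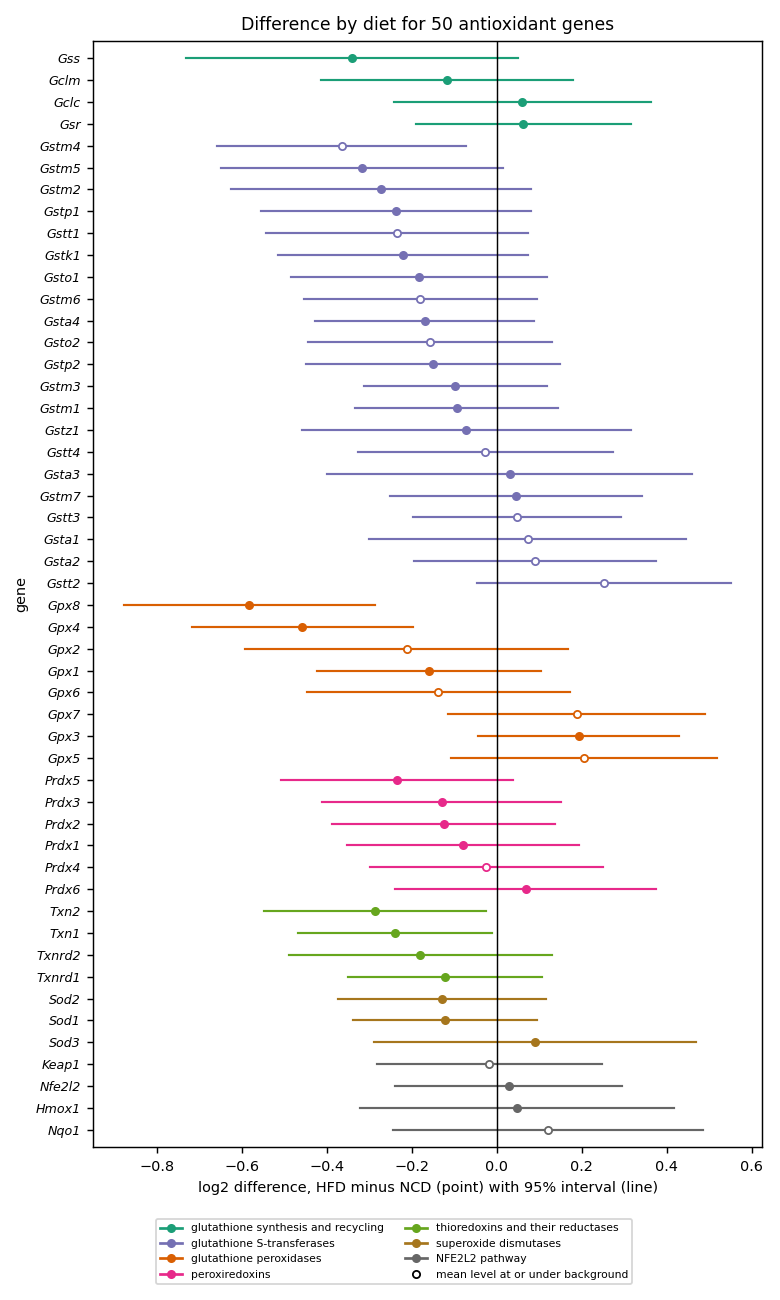
Log2 difference, HFD minus NCD (horizontal axis), of each of the 50 genes (vertical axis, grouped by role), with the 95% interval of the moderated fit as a line. Open points are genes whose mean lay at or under the background mark. The intervals of Gpx8, Gpx4, Gstm4, Txn2 and Txn1 lie wholly under 0 before any adjustment, and the other 45 cross it.

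The antioxidant genes were highest on the same arrays as all genes above the mark. Their mean, over the 34 genes above the mark, was 8.87 on NCD 2, 8.87 on NCD 3 and 8.77 on HFD 4, and lay between 8.51 and 8.63 on the other 5 arrays. The highest of a gene's 8 values fell on NCD 2 or NCD 3 for 25 of these 34 genes (73.5%), and for 61.8% of all genes above the mark. The arrays differed in this: NCD 2 held the highest value for 41.2% against 19.0%, and NCD 3 for 32.4% against 42.8%. The lowest value fell on HFD 1 for 13 of the 34 genes (38.2%), against 21.8%. Averaged by group, the mean over the 34 genes was 8.73 for NCD (SD 0.16, n = 4) and 8.60 for HFD (SD 0.12, n = 4). The arrays of the groups overlapped. Without NCD 2 and NCD 3 the median difference over the 50 genes was -0.00375, and it was -0.05 once all arrays had been given 1 median and 1 spread. The part of the arrays' spread in single differences was not tested beyond these alternatives.

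**Figure D3:**
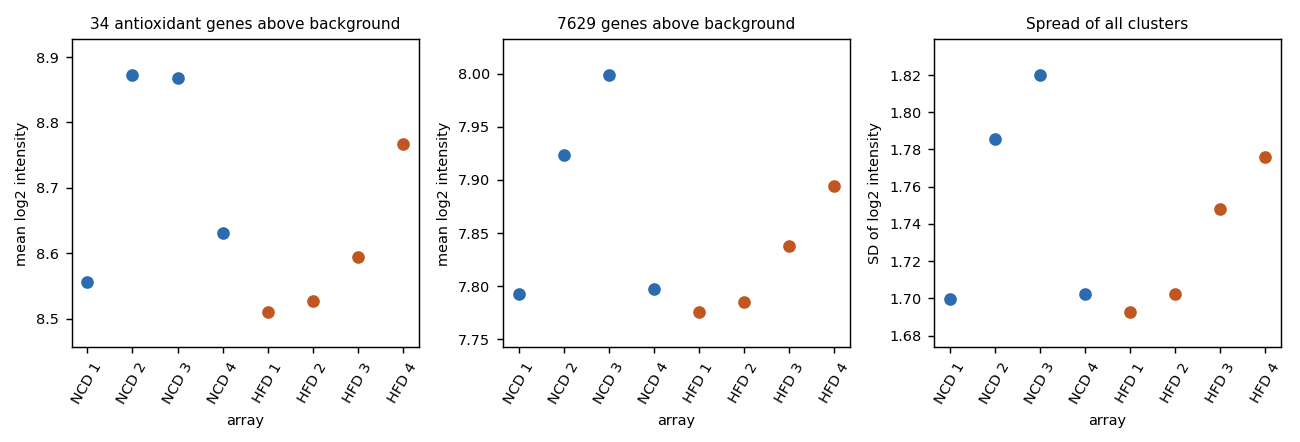
Each panel has the 8 arrays on the horizontal axis, NCD in blue and HFD in orange. The vertical axes are the mean log2 intensity of the 34 antioxidant genes above background (left), the same over 7629 genes (middle) and the standard deviation of log2 intensity over all clusters (right). NCD 2, NCD 3 and HFD 4 are the 3 highest arrays in each panel.

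Glutathione peroxidases held the largest differences. Gpx8 encodes a peroxidase of the endoplasmic reticulum membrane that carries cysteine in place of selenocysteine. Its cluster lies on chromosome 13 from 113832967 to 113836596 in the file, whose build is not named. Its log2 level was 8.95, 9.36, 9.41 and 9.54 on NCD 1 to 4 and 8.89, 8.63, 8.55 and 8.86 on HFD 1 to 4. The groups did not overlap, but NCD 1 stood only slightly above HFD 1. The difference was -0.58 ± 0.14 (SE, 95% interval -0.88 to -0.29), a ratio of 1.5 between the groups, with a limma adjusted p = 0.178. The Gpx8 level was lowest within each group on the array with high muscle markers, NCD 1 and HFD 3. Without those arrays the difference was -0.64 (adjusted p = 0.105), and without NCD 1 alone it was -0.70, past the threshold (adjusted p = 0.0452). Without NCD 2 and NCD 3 it was -0.51.

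Gpx4, the selenoprotein that reduces lipid peroxides within membranes and restrains ferroptosis, had the next largest difference. Its cluster lies on chromosome 10 from 79516233 to 79519184. Its log2 level was 9.22, 9.50, 9.70 and 9.34 on NCD 1 to 4 and 8.89, 9.01, 8.95 and 9.08 on HFD 1 to 4. Every HFD array was lower than every NCD array, and the NCD values spread more (SD 0.21 in NCD and 0.081 in HFD). The difference was -0.46 ± 0.12 (SE, 95% interval -0.72 to -0.20), with a limma adjusted p = 0.277. The NCD arrays of wide spread gave its highest values, and without NCD 2 and NCD 3 the difference was -0.30. With equal median and spread it was -0.39. A second cluster named Gpx4, 798 bases long and elsewhere on chromosome 10 (from 45595096 to 45595893), had a difference of -0.46 ± 0.13 (SE, adjusted p = 0.351 over all clusters). The probes of both clusters may bind the same transcript, so they are not separate measurements.

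The other 6 peroxidases had differences in both directions. Gpx3, the secreted plasma form, was 9.80, 9.95, 9.88 and 10 on NCD 1 to 4 and 10.01, 10.27, 9.98 and 10.14 on HFD 1 to 4, a difference of 0.19 ± 0.11 (SE, limma adjusted p = 0.772). Only NCD 4 reached the range of the HFD arrays. Gpx1, the peroxidase of cytosol and mitochondria, had a difference of -0.16 ± 0.12 (SE), which was -0.098 without NCD 2. Gpx7, which like Gpx8 works in the endoplasmic reticulum, had a mean of 5.46 in NCD and 5.65 in HFD, both under the background mark. Gpx2, Gpx5 and Gpx6 also lay under it, with means over 8 arrays of 4.77, 3.83 and 4.84, so 4 of the 8 peroxidases gave levels above it. Over all 8 peroxidases 5 means were lower and 3 higher in HFD, and differences ran from -0.58 to 0.205.

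The thioredoxins and their reductases had lower means in HFD for all 4 genes, of which 0 passed, with a median difference of -0.21. Txn1, the cytosolic thioredoxin, was 11.75, 11.85, 12.03 and 11.78 on NCD 1 to 4 and 11.64, 11.58, 11.65 and 11.58 on HFD 1 to 4. The groups did not overlap, and the HFD arrays lay within 0.07 of each other. The difference was -0.24 ± 0.11 (SE, limma adjusted p = 0.670). A second Txn1 cluster, annotated to chromosome 1 while the RefSeq gene lies on chromosome 4, had a difference of -0.20.

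Txn2, the mitochondrial thioredoxin, was 9.20, 9.41, 9.47 and 9.10 on NCD 1 to 4 and 8.88, 9.11, 8.88 and 9.16 on HFD 1 to 4. Its groups overlapped through NCD 4, HFD 2 and HFD 4. The difference was -0.29 ± 0.12 (SE, limma adjusted p = 0.651), and -0.14 without NCD 2 and NCD 3. The reductases that recharge them, Txnrd1 in the cytosol and Txnrd2 in mitochondria, had differences of -0.12 and -0.18 (limma adjusted p = 0.859 and 0.845). Txnrd2 turned to 0.02 without NCD 2 and NCD 3, and the other 3 genes kept their sign in every alternative run.

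Of the 3 superoxide dismutases 0 passed, and 2 means were lower and 1 higher in HFD. Sod1, the cytosolic copper-zinc enzyme, was 11.85, 11.71, 11.81 and 11.71 on NCD 1 to 4 and 11.67, 11.67, 11.65 and 11.60 on HFD 1 to 4. The groups did not overlap, but the lowest NCD value of 11.71 lay close to the highest HFD value of 11.67. The difference was -0.12 ± 0.10 (SE, limma adjusted p = 0.850), and it was 0.0001 once all arrays had been given 1 median and 1 spread, -0.02 with repeated quantile normalization and -0.07 with cyclic loess. Sod2, the mitochondrial manganese enzyme, was 10.47, 10.70, 10.72 and 10.56 on NCD 1 to 4 and 10.37, 10.49, 10.39 and 10.68 on HFD 1 to 4. The Sod2 groups overlapped, with a difference of -0.13 ± 0.11 (SE, limma adjusted p = 0.862). Sod3, the extracellular enzyme, averaged 6.97 over the NCD arrays (SD 0.38, n = 4) and 7.06 over the HFD arrays (SD 0.27, n = 4).

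**Figure D4:**
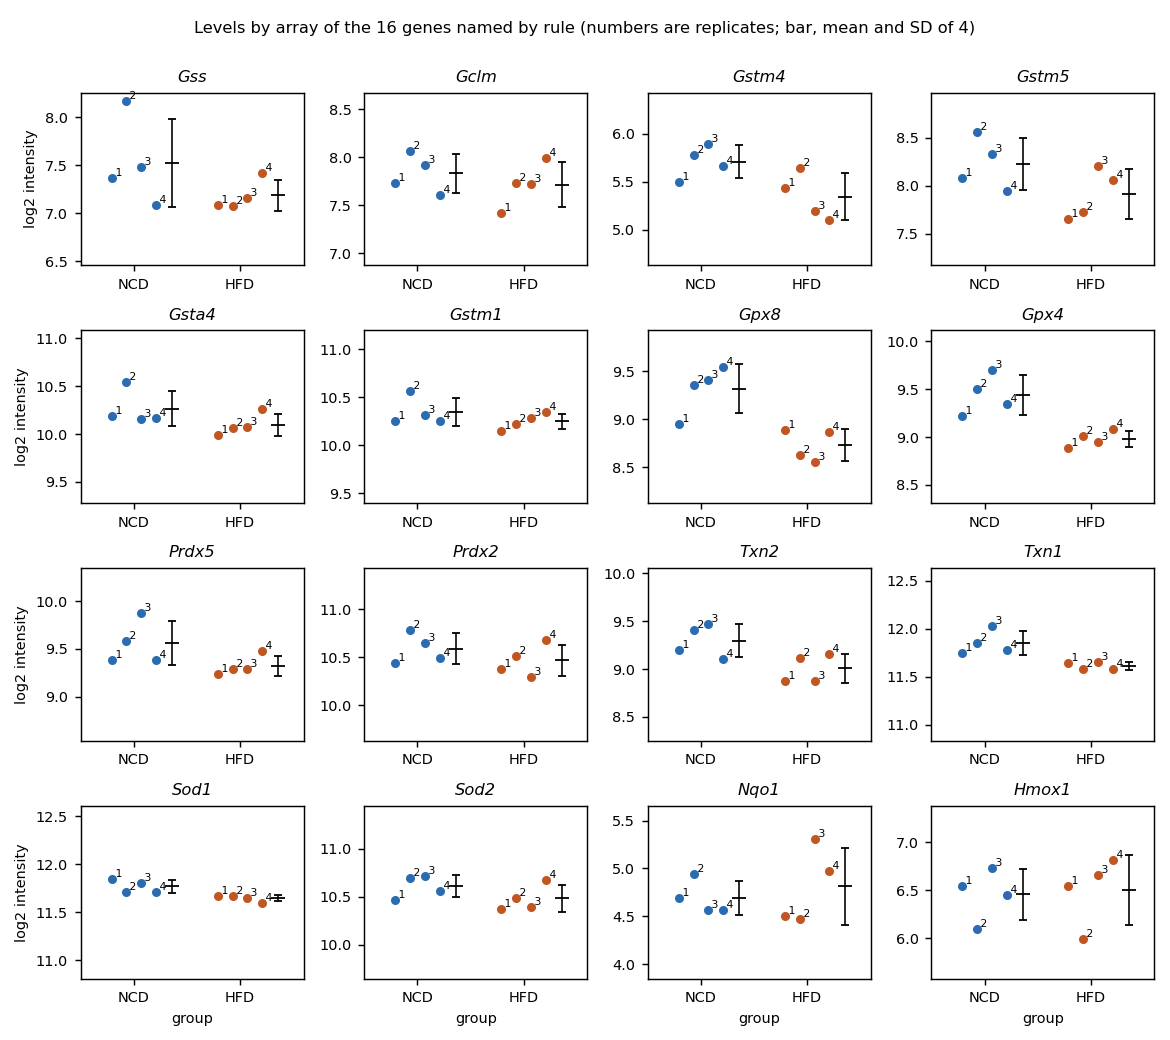
Normalized log2 intensity (vertical axis, equal length in every panel) of 16 genes on the NCD (blue) and HFD (orange) arrays. Numbers beside points are replicates, and bars give the mean and SD of 4 arrays. The groups are apart for Gpx8, Gpx4, Txn1 and Sod1 and overlap for the other 12 genes.

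Of the peroxiredoxins, 5 of 6 had lower means in HFD, 0 passed the threshold, and the groups of all 6 overlapped. Prdx5, found in mitochondria and cytosol, was 9.39, 9.58, 9.88 and 9.39 on NCD 1 to 4 and 9.24, 9.29, 9.29 and 9.48 on HFD 1 to 4. HFD 4 lay above NCD 1 and NCD 4. Its difference was -0.235 ± 0.13 (SE, limma adjusted p = 0.749), and -0.13 without NCD 3. Prdx2, a cytosolic peroxiredoxin also abundant in red cells, was 10.44, 10.79, 10.65 and 10.49 on NCD 1 to 4 and 10.38, 10.51, 10.30 and 10.68 on HFD 1 to 4, with a difference of -0.125 ± 0.12 (SE, limma adjusted p = 0.878). HFD 4 exceeded 3 of the NCD arrays. The brightest Prdx2 cluster is annotated to chromosome 1, while the RefSeq gene lies on chromosome 8, where the cluster had a difference of -0.215 ± 0.15 (SE). Erythroid markers, of which 4 of 8 lay above the mark, had an array mean of 7.69 to 8.0 in NCD and 7.545 to 7.80 in HFD. Their part in the Prdx2 difference was not tested.

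Mitochondrial Prdx3 had a difference of -0.13 ± 0.13 (SE) and cytosolic Prdx1 one of -0.08 ± 0.13 (SE). Prdx1 turned to 0.10 without NCD 2 and NCD 3. Prdx4, of the endoplasmic reticulum, lay under the background mark (5.97 in NCD and 5.95 in HFD), and Prdx6 was the peroxiredoxin with a higher mean in HFD (8.94 in NCD and 9.01 in HFD). Each gene was assigned a main site, and 9 were assigned wholly or partly to mitochondria (Gsr, Gstk1, Gpx1, Gpx4, Prdx3, Prdx5, Sod2, Txn2 and Txnrd2). These had lower means in 8 cases, Gsr being the exception, with a median difference of -0.18. The 32 genes assigned to the cytosol alone had lower means in 23 cases, with a median of -0.12. Further sites of their products were not considered. The sites also differed in brightness. All 9 mitochondrial genes lay above the background mark, but only 20 of the 32 cytosolic genes did. The antioxidant genes above the mark had a median difference of -0.1275, and those at or under it one of -0.02. The difference between these sites was not tested, and the part of brightness in it was not tested either.

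The glutathione S-transferases were the largest family, with 21 genes, of which 12 lay above the background mark. Means were lower in HFD for 15 and higher for 6, and 0 passed the threshold. In the mu class 6 of 7 genes had lower means, with a median difference of -0.18. The mean over the 7 Gstm genes was 7.06, 7.29, 7.24 and 7.10 on NCD 1 to 4 and 6.95, 6.95, 7.02 and 7.04 on HFD 1 to 4. In the array means over all 21 transferases, and over each of the other roles, the groups overlapped. No other single transferase class was averaged by array. In the Gstm mean the groups did not overlap, but NCD 1 stood only slightly above HFD 4. The 7 genes neighbour each other on chromosome 3 in the file, from 107698757 (the start of Gstm5) to 107847706 (the end of Gstm4), except that the brightest Gstm3 cluster is annotated to chromosome 10. Members of this class are close in sequence, so a probe may read more than 1 of them and the genes are not independent.

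Gstm4 had the smallest p of the transferases but lay under the background mark. Its level was 5.50, 5.78, 5.90 and 5.67 on NCD 1 to 4 and 5.44, 5.65, 5.20 and 5.10 on HFD 1 to 4, with overlap through HFD 2. The difference was -0.365 ± 0.14 (SE, limma adjusted p = 0.566). Gstm5 was 8.08, 8.56, 8.33 and 7.94 on NCD 1 to 4 and 7.65, 7.73, 8.20 and 8.06 on HFD 1 to 4. HFD 3 and HFD 4 overlapped the NCD arrays, and the difference was -0.32 ± 0.16 (SE, limma adjusted p = 0.701). It was -0.21 without NCD 2 and -0.10 without NCD 2 and NCD 3. Gstm1 was 10.25, 10.56, 10.31 and 10.25 on NCD 1 to 4 and 10.15, 10.22, 10.28 and 10.34 on HFD 1 to 4, a difference of -0.095 ± 0.11 (SE), or -0.02 without NCD 2. Gstm2 had one of -0.27 ± 0.17 (SE), which turned to 0.005 without NCD 2 and NCD 3. Gstm3 and Gstm6 also had lower means in HFD. For Gstm3 they were 7.42 in NCD and 7.325 in HFD, and for Gstm6 4.44 and 4.26, under the mark. These Gstm3 values are those of its brightest cluster, annotated to chromosome 10. A dimmer Gstm3 cluster, annotated to chromosome 3, had a mean of 6.44 over 8 arrays, just under the mark. The difference of that dimmer cluster was -0.055 ± 0.15 (SE). Gstm7 had a mean of 6.62 in NCD and 6.665 in HFD.

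Gsta4, which conjugates the lipid peroxidation product hydroxynonenal, was 10.19, 10.54, 10.16 and 10.17 on NCD 1 to 4 and 9.99, 10.06, 10.07 and 10.26 on HFD 1 to 4. The groups overlapped through HFD 4, and the difference was -0.17 ± 0.12 (SE, limma adjusted p = 0.825). Without NCD 2, its highest array, it was -0.078. The other alpha transferases had higher means in HFD: 5.68 in NCD and 5.75 in HFD for Gsta1, 5.895 and 5.985 for Gsta2, and 7.07 and 7.10 for Gsta3. Gstp1, of the pi class, had a difference of -0.24 ± 0.15 (SE). Gstk1, a transferase of mitochondria and peroxisomes that also acts in adiponectin assembly under the name DsbA-L, had one of -0.22 ± 0.14 (SE). Both had a limma adjusted p of 0.7995. Without NCD 2 and NCD 3 they were -0.04 and -0.015. Means were 7.89 in NCD and 7.74 in HFD for Gstp2, 7.62 and 7.44 for Gsto1, 6.49 and 6.335 for Gsto2, and 7.50 and 7.43 for Gstz1, which clears maleylacetoacetate in tyrosine breakdown. The 4 theta transferases all lay under the background mark, with 2 means higher and 2 lower. Over all 8 arrays Gstt1, Gstt3 and Gstt4 had means of 6.16, 6.25 and 6.16. Gstt2 among them had the largest positive difference of the 50 genes, 0.25 ± 0.14 (SE, limma adjusted p = 0.7585).

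Of the 4 genes that make and recycle glutathione 0 passed, and 2 means were lower and 2 higher in HFD. Gss, the synthetase that completes glutathione, was 7.37, 8.17, 7.48 and 7.09 on NCD 1 to 4 and 7.09, 7.08, 7.16 and 7.42 on HFD 1 to 4. NCD 2 stood above all other arrays, and the groups overlapped. The difference was -0.34 ± 0.18 (SE, limma adjusted p = 0.745), and it was -0.13 without NCD 2 and -0.04 without NCD 2 and NCD 3. Gclm, the modifier subunit of glutamate-cysteine ligase, which sets the rate of synthesis, was 7.73, 8.07, 7.92 and 7.61 on NCD 1 to 4 and 7.42, 7.73, 7.72 and 7.99 on HFD 1 to 4. Its difference was -0.12 ± 0.14 (SE, limma adjusted p = 0.9035), with overlapping groups. Gclc, the catalytic subunit of the same ligase, had a difference of 0.06 ± 0.14 (SE), and Gsr, the glutathione reductase, had a mean of 7.065 in NCD and 7.13 in HFD.

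Of the 4 genes of the NFE2L2 pathway 0 passed, and 3 means were higher in HFD. Nfe2l2 was 9.34, 9.92, 9.63 and 9.53 on NCD 1 to 4 and 9.67, 9.63, 9.60 and 9.63 on HFD 1 to 4, 0.03 higher on average in HFD (95% interval -0.24 to 0.30). The HFD arrays lay within 0.07 of each other and inside the NCD range. Keap1 was 6.41, 6.03, 6.52 and 6.10 on NCD 1 to 4 and 6.23, 6.23, 6.27 and 6.26 on HFD 1 to 4, under the background mark in its mean, and again narrow in HFD. The standard deviation was larger in NCD for 34 of the 50 genes (68.0%), against 62.2% of all genes.

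Nqo1, the quinone reductase often used to read NFE2L2 activity, was 4.69, 4.94, 4.57 and 4.57 on NCD 1 to 4 and 4.50, 4.47, 5.31 and 4.97 on HFD 1 to 4. All values lay under the background mark, so its difference of 0.12 ± 0.17 (SE, limma adjusted p = 0.920) is a difference between dim values. Hmox1, the heme oxygenase, was 6.55, 6.10, 6.73 and 6.45 on NCD 1 to 4 and 6.55, 5.99, 6.66 and 6.82 on HFD 1 to 4, around the mark. Its difference was 0.05 (95% interval -0.32 to 0.42, limma adjusted p = 0.9765).

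Other genes of the same chemistry were counted from 8 lists, which together held 134 measured genes and none of the 50. None passed the threshold, with a smallest adjusted p of 0.320. At an unadjusted p under 0.05, 11 were lower and 6 higher, beside 4.52% and 2.73% of all genes. Their median difference was -0.045. Microsomal and other glutathione-handling enzymes had lower means for 14 of 15 genes, with a median of -0.165. Ptges, a membrane prostaglandin E synthase that uses glutathione, was 5.97, 6.00, 5.86 and 6.09 on NCD 1 to 4 and 5.66, 5.51, 5.51 and 5.71 on HFD 1 to 4, a difference of -0.38 ± 0.11 (SE, limma adjusted p = 0.320). Its groups were apart, but all its values lay under the background mark. Mgst2, a microsomal glutathione transferase, was 7.88, 8.47, 7.88 and 7.91 on NCD 1 to 4 and 7.39, 7.52, 7.72 and 7.83 on HFD 1 to 4, a difference of -0.42 ± 0.15 (SE, limma adjusted p = 0.531). Its groups were also apart, with NCD 2 above all other arrays.

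Glutaredoxins, thioredoxin partners and sulfur repair genes had lower means for 15 of 19, with Msra and Msrb2, which repair oxidised methionine, at -0.265 and -0.38 (limma adjusted p = 0.625 and 0.653). Msra had a mean of 6.33 over 8 arrays, under the background mark. In the list of glutathione turnover and cystine supply 10 of 17 means were higher. There Chac2, which degrades glutathione, had a difference of -0.29 and Dpep1, a dipeptidase of the same route, one of 0.38 (limma adjusted p = 0.592 and 0.605). Dpep1 also lay under the mark, with a mean of 6.27. Among catalase and other radical-handling genes 8 of 14 means were lower. Pon1, a paraoxonase, and Aifm2, which keeps membrane ubiquinone reduced, had differences of 0.43 and -0.285 (limma adjusted p = 0.590 and 0.6885).

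NFE2L2 targets and partners outside the 50 had a median difference of -0.045, with 20 of 30 means lower. Maff, a small MAF protein, and Slc7a11, the cystine carrier, both under the background mark, had differences of -0.31 and -0.27 (limma adjusted p = 0.637 and 0.684). Selenoproteins and selenium supply had a median of -0.07 with 12 of 16 means lower, and the smallest p belonged to Selk and 2700094K13Rik, current symbols Selenok and Selenoh, at -0.21 and -0.23 (limma adjusted p = 0.778 and 0.780). The mean of 2700094K13Rik, 6.00, lay under the mark. The mitochondrial NADPH list had a median of -0.005 over 9 genes. Mthfd1l, a mitochondrial folate enzyme, differed by 0.37 (limma adjusted p = 0.412) and Idh2, the mitochondrial isocitrate dehydrogenase, by 0.29 (limma adjusted p = 0.723). All values of Mthfd1l lay under the mark, with a mean of 5.68.

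Oxidant-producing enzymes had higher means in HFD for 11 of 16 genes, with a median of 0.045. Xdh, the xanthine oxidoreductase, was 7.89, 8.41, 8.66 and 7.88 on NCD 1 to 4 and 8.60, 8.61, 8.91 and 9.08 on HFD 1 to 4. It was low on NCD 1 and NCD 4, and NCD 3 lay above HFD 1 and HFD 2. Its difference was 0.59 ± 0.175 (SE, limma adjusted p = 0.362), the largest positive one in the 8 lists. Maob, a monoamine oxidase of the outer mitochondrial membrane that releases hydrogen peroxide, had a difference of -0.405 (limma adjusted p = 0.531).

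Of the 50 genes, 6 in the authors' deposited table had a p of at most 0.05 for diet: Gpx8, Gpx4, Txn2, Txn1, Sod1 and Gstm3, each with a negative fold, and over all genes 3.96% in the authors' deposited table had such a p with a negative fold. Gpx8 alone among them had a deposited fold of at least 1.5 in size (-1.5). The deposited p of Gstm3 is that of its brightest cluster, annotated to chromosome 10.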

How the data were processed

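The authors took logs of the intensities and applied quantile normalization in Affymetrix Power Tools, per the series' design text. How probes were summarized, the build and the annotation release are not stated there or in the labels. The deposited values are normalized log2 intensities with 2 decimals, and both deposited tables were identical. The authors' p-value and signed fold score for diet, per the file headers, were read only from the authors' deposited table. Differences are HFD minus NCD from limma 3.58.1 in R 4.3.3 (lmFit, eBayes, prior of 8.87 degrees of freedom), two-sided, fitted on 21759 genes with Benjamini-Hochberg adjustment over all of them. Errors are moderated standard errors, or SD over 4 arrays beside means. Arrays have no count depth, and their number limits the precision: the median standard error was 0.127. Of the 50 genes 49 matched a RefSeq accession, and Gpx3 kept its file symbol only. The fit was tested on simulated data with normal noise of each gene's spread and 200 changed genes. It recovered 46.4% of genes changed 1.5-fold and 95.8% of those changed 2-fold. A change of 1.5-fold, the size seen for Gpx8, would therefore often be missed.

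The members and lists were chosen with earlier results of these data known. Values on every array are given for the 2 genes of smallest p in each role, the 6 brightest clusters and the 6 largest differences, which made 16 genes, and for the 2 genes of smallest p in a list where stated. Gpx3, Nfe2l2 and Keap1 were added after their values were seen. Alternatives covered other tests, normalizations, clusters, filters and arrays. Replicate numbers showed no pairing of the arrays: deviations of same-numbered arrays correlated between -0.165 and 0.0025 over the 4 pairs. Arrays of different number correlated between -0.379 and 0.324, so a weak pairing could not be seen against that range.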

Additional observations from a re-analysis of the deposited data

Results flagged for a closer look

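In 100 groups of 4 values (50 genes in NCD and in HFD), 2 arrays stood apart from the rest of their group, by a gap to the nearest of the others that exceeded Dixon's 95% critical value; chance marks about 1 group in 20. Gsta4 was 10.54 on NCD 2, while the other NCD arrays lay between 10.16 and 10.19. Sod3 was 6.4 on NCD 1, an array with high muscle markers, while the other NCD arrays lay between 7.13 and 7.18. On HFD 3, which also had high muscle markers, Sod3 was 7.37, the highest of the HFD arrays.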

How the results depend on the processing

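Of 27 alternatives, 2 were chosen after seeing the data (clusters on the RefSeq chromosome, and 5 arrays without NCD 2, NCD 3 and HFD 4). None of the 50 genes passed in 25 of them. Without single arrays 0 to 1 passed (Gpx8 without NCD 1), genes past the threshold numbered 21 to 38 against 31 with all arrays, and the mean difference over the 50 genes ran from -0.146 to -0.058. The methods' t-test at an unadjusted p under 0.05 passed 1514 genes, 6 of the 50 and 9 of the 134 list genes; after adjustment it passed 0 genes, as did unequal variances. Over all genes, 70 passed with a variance trend and robust prior, 55 without dim genes, 3 without NCD 2 and NCD 3, and 1 without those and HFD 4; these last fits have fewer arrays. The median difference stayed below 0 in all 27, from -0.15 to -0.00375, while the mean difference was -0.098 with all arrays and 0.016 without NCD 2 and NCD 3. The replicate block gave 36 genes and none of the 50, and none of the 8 arrays correlated best with its own number.

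Signs that turned belonged to differences that had not passed, and the cause was not tested. Of the 50 genes, 14 changed sign without NCD 2 and NCD 3, 8 without NCD 1 and HFD 3, and 11 without NCD 2, NCD 3 and HFD 4. Those named next are only the ones whose difference the text gives. Without NCD 2 and NCD 3, Gstm2 was 0.005, Txnrd2 0.02, Prdx2 0.0025, Gclm 0.045 and Prdx1 0.1025. Without NCD 1 and HFD 3, Nqo1 was -0.0467, Gclc -0.0033, Nfe2l2 -0.05 and Keap1 0.0233. Without NCD 2, NCD 3 and HFD 4, Prdx1 was 0.0383 and Hmox1 -0.1. With equal median and spread, Sod1 was 0.0001 and Prdx1 0.0029; with array weights Keap1 was 0.0159. Leaving out single arrays gave Gclc -0.0583 to 0.1417, Nfe2l2 -0.0608 to 0.1325, Keap1 -0.0958 to 0.0675, Prdx1 -0.1558 to 0.0008, Hmox1 -0.0717 to 0.2192 and Nqo1 -0.0458 to 0.2342. Genes near the background mark of 6.46 have little signal, which limits their differences.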
